A study of Mus musculus with 40 samples.

Results

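The hemangioblast stage (HB) of an enhancer reporter screen is described here, with the question of which genomic fragments were recovered from cells with reporter activity and which from cells without it. The members are the 8 fragment lists whose titles name the HB stage, of 40 lists in the whole series. They held 66102 of the 458486 listed fragments. Reduced to different fragments, these were 60610 of 354627. The cells came from the mouse embryonic stem cell line HM-1, whose Hprt locus is non-functional, and all groups share this origin. Pieces of open chromatin cut out by the Tn5 transposase from 5 stages of blood cell differentiation (ES, HB, HE1, HE2 and HP) had been placed upstream of the HSP68 minimal promoter and a Venus-YFP reporter and integrated into Hprt, so that each cell carried 1 fragment. Every fragment was thus tested outside its own locus, and a fragment recovered from HB cells need not have come from HB chromatin. According to the paper, the integration also repaired Hprt, by which cells with an insert were selected. HB cells were the FLK1-expressing, hemangioblast-like cells purified from embryoid bodies. At this stage the cells were sorted by YFP level into 4 gates (Negative, Low, Medium and High), with 2 replicates of each gate. The Negative gate had been set with cells that carry the minimal promoter alone. A sort is here the HB cells of 1 replicate, a positive fragment is one listed for the Low, Medium or High gate of a sort, and a negative fragment is one listed for its Negative gate. The data hold DNA fragments and no RNA, so the cell type itself could not be checked on the expression of its markers.

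The hemangioblast is a mesodermal cell that can give rise to blood, endothelium and cardiac or smooth muscle. FLK1, the VEGF receptor encoded by Kdr, marks it, and ETV2, TAL1, LMO2, GATA2, FLI1 and RUNX1 are among the transcription factors that act one after another as its progeny become endothelial and then blood cells. MESP1 and EOMES act earlier, when mesoderm forms, and Pdgfra is counted here with the genes of early mesoderm. Enhancers are stretches of DNA that raise the activity of a promoter when transcription factors bind to short motifs within them.

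In replicate 1 the lists held 8426 Negative, 7468 Low, 16152 Medium and 16343 High fragments. In replicate 2 they held 3056, 5157, 3569 and 5931. A list gives each fragment once, without the number of reads behind it, and the number of listed fragments is the only measure of depth. A fragment listed in several positive gates of a sort was counted once, whereas counts given by gate are list entries. Taking the 3 positive gates together gave 38953 different positive fragments in replicate 1 and 12209 in replicate 2. Positive fragments thus made up 82.2% and 79.98% of the fragments compared within each sort, and a gene or region with no negative fragment at all could exceed its expected number of positive fragments by at most 1.22-fold in replicate 1 and 1.25-fold in replicate 2.

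The regions of 6 loci are shown first, because the results on single loci turn on them. For each locus the region with the most positive HB fragments in the gene or within 25 kb of it was taken, and 160 bases around the base covered by the most HB fragments are given. Sequences are those of the plus strand of GRCm38, the assembly that mm10 names, and capitals mark matches to the motifs searched, on either strand. The motifs were AP-1 (TGACTCA or TGAGTCA), ETS (CAGGAAGT or CCGGAAGT), TEAD (GGAATGC or GGAATGT), the GATA motif (AGATAAG), SOX (ACAAAGG or ACAATGG), OCT (ATGCAAAT), E-box (CAGCTG), TAL E-box (CAGATG), RUNX (TGTGGTC or TGTGGTT), T-box (AGGTGTGA), LEF/TCF (ATCAAAG) and CTCF.
Kdr, chr5:75962289-75962448: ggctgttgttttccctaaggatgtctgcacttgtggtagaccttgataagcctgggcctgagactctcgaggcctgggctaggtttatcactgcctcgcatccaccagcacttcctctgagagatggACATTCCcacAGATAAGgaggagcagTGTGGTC
Gata2, chr6:88189563-88189722: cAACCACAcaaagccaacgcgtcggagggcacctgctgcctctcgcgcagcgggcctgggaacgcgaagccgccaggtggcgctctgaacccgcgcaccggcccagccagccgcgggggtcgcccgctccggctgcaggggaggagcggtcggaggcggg
Tal1, chr4:115052714-115052873: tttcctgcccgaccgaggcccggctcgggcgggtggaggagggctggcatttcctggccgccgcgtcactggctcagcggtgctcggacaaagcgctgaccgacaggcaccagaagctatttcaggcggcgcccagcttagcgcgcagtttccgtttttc
Runx1, chr16:92822214-92822373: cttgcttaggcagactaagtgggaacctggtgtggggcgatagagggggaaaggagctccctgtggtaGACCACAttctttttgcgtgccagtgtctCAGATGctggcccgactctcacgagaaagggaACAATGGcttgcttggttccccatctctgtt
Eomes, chr9:118489740-118489899: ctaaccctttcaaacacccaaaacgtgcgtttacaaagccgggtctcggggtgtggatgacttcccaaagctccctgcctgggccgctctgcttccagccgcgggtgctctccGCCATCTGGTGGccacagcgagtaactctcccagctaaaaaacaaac
Pxn, chr5:115490021-115490180: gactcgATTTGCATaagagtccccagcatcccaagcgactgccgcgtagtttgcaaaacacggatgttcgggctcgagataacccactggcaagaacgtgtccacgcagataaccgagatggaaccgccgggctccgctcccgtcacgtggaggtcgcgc

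The window in the Kdr intron held matches to the TEAD, GATA and RUNX motifs. In the window of the Runx1 intron a RUNX, a TAL E-box and a SOX match were found, and in the Gata2 window a RUNX match. The Eomes window held a CTCF match that overlaps a TAL E-box, and the Pxn window an OCT match. No searched motif was present in these 160 bases at Tal1. Of the windows of the same length taken from all 25707 HB regions on placed chromosomes, 3.46% held a GATA match, 6.87% a RUNX match, 5.48% a TEAD match, 6.77% a SOX match, 13.9% a TAL E-box, 4.31% a CTCF match and 0.879% an OCT match. Over the 13 loci with a region, 8 windows held a match to any of the motifs, beside 49.3% of the windows of all HB regions. A match is a description of the letters and was not tested for binding.

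At the loci of hemangioblast and mesoderm regulators, positive fragments were recovered at Kdr, Gata2, Tal1, Runx1, Eomes and Mesp1, but negative fragments lay at each of these loci as well. The Gata2 region (chr6:88189390-88190123), found outside genes, with its centre 4135 bp upstream of this GATA factor gene, held 2 Low, 5 Medium and 7 High fragments and 1 Negative fragment in replicate 1, and no fragment in replicate 2. Its 14 positive fragments stood against 12.3 expected (adjusted p = 1, Cochran-Mantel-Haenszel test over the 926 regions with at least 10 fragments). The Tal1 region (chr4:115052603-115053134), 3558 bp upstream of the start site, held 2 Low, 4 Medium, 3 High and 2 Negative fragments, again in replicate 1 alone, with 9.04 positive fragments expected. The Runx1 region (chr16:92822070-92822658), in an intron and 3710 bp downstream of a start site, held 8 Medium, 2 High and 2 Negative fragments of replicate 1, with 9.87 positive fragments expected. None of the regions at these 3 loci passed the test.

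The Kdr region (chr5:75962118-75962471) lies in an intron, 16161 bp downstream of the start site. It held 2 Medium, 4 High and 1 Negative fragment in replicate 1 and 1 Negative fragment in replicate 2, too few for the test, which needed 10 or more. Over the whole Kdr locus there were 8 positive and 2 negative fragments. The Eomes region (chr9:118489601-118490090), which lies 11656 bp downstream of the start of this T-box factor gene, held 4 Medium, 1 High and 1 Negative fragment, all of replicate 1. At Mesp1, a bHLH factor gene of early mesoderm, 6 positive fragments and 2 negative fragments lay over the locus. At Etv2 a single Medium fragment of replicate 1 was found, 3451 bp upstream of the start site. The Fli1 locus held 5 positive fragments, all from replicate 2, and 1 negative fragment from replicate 1. The Pdgfra locus held 2 positive fragments, both of replicate 2, and 2 negative fragments, both of replicate 1. No HB fragment lay at Lmo2, which at the depth of these libraries says only that none was sampled.

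Of the other loci, Pxn, which encodes the adhesion protein paxillin, and Sparc, which encodes a matrix glycoprotein, had the most positive fragments. The Pxn locus held 42 positive and 7 negative fragments in replicate 1 and 2 positive and 1 negative in replicate 2. Its main region (chr5:115489466-115490295), for which the start site of Sirt4 was nearer, held 5 Low, 9 Medium, 8 High and 1 Negative fragment in replicate 1 and 1 High and 1 Negative fragment in replicate 2. That made 23 positive fragments, with 20.5 expected (adjusted p = 1). The Sparc locus had 33 positive and 5 negative fragments in replicate 1 and none in replicate 2. Its main region (chr11:55428157-55428661), 8329 bp upstream of the start site, held 4 Low, 2 Medium and 3 High fragments and no Negative fragment. The locus of Hspg2, the gene of the matrix proteoglycan perlecan, had 19 positive and 3 negative fragments, and that of Dlk1, which encodes a Notch-related surface protein, had 6 positive and 4 negative ones.

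**Figure D1:**
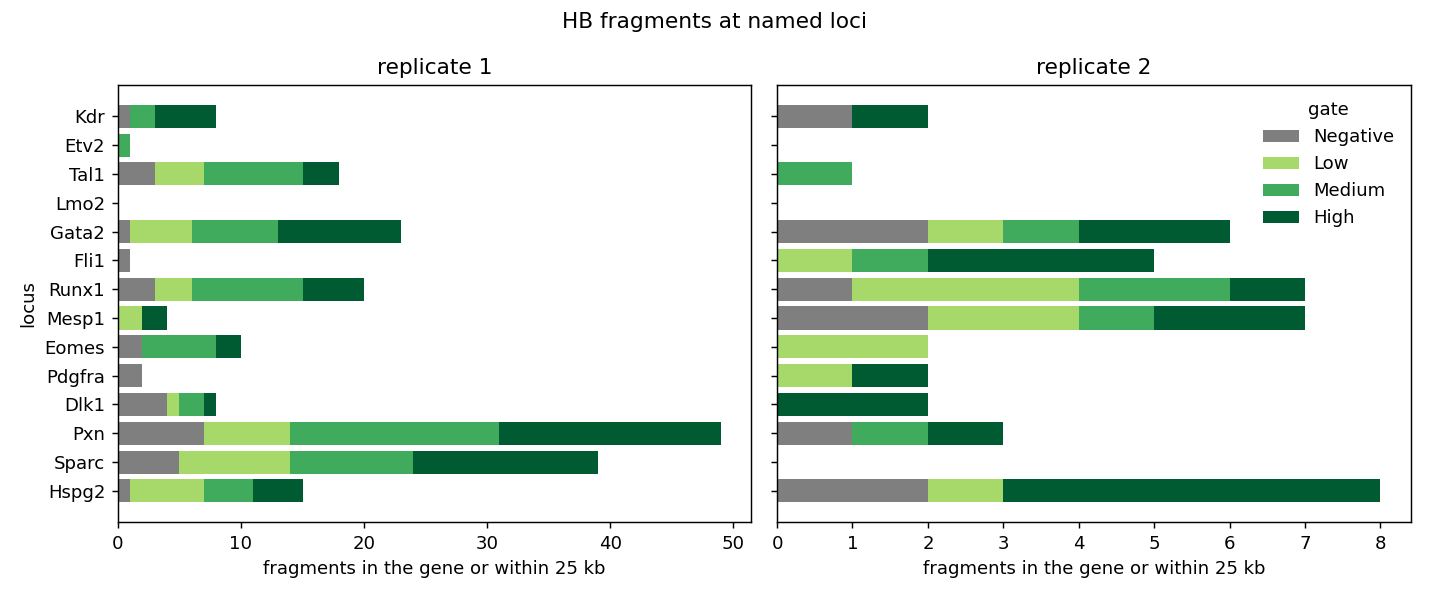
Number of HB fragments (x axis, a separate scale for each replicate) in each of 14 named genes or within 25 kb of it (y axis), stacked by YFP gate, in replicate 1 (left) and replicate 2 (right). In replicate 1 Pxn and Sparc lead with 42 and 33 positive fragments, and Negative fragments (grey) lie at most of the loci that have positive ones.

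Genes were compared next, each fragment being given to the gene with the nearest start site. Of the 536 genes with at least 20 HB fragments over both sorts, 242 had more and 294 fewer positive fragments than expected, and the median ratio of observed to expected was 0.986. No gene passed an adjusted p of 0.05 in either direction (stratified by sort, Cochran-Mantel-Haenszel test, Benjamini-Hochberg adjustment over 536 genes), which is 0% of the genes tested both for more and for fewer positive fragments. The lowest adjusted p was 0.189. Without adjustment 26 genes had a p under 0.05, of which 3 had more and 23 fewer positive fragments, and limma, which compared levels over the 8 libraries, gave 40 genes at an unadjusted p under 0.05 and 0 after adjustment. The p-values of the Cochran-Mantel-Haenszel test treat fragments as independent and measure counting error within the sorts. With the ceiling on the ratio given above, more positive fragments than expected are harder to detect than fewer.

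Among genes that moved the same way in both sorts, the one with the lowest p for fewer positive fragments was Mxra7, a gene named for matrix remodelling. It had 7 Negative against 2 Low, 2 Medium and 6 High fragments in replicate 1 and 4 Negative against 1 High fragment in replicate 2. Its odds ratio was 0.221 (95% interval 0.0953 to 0.512), with an adjusted p of 0.189. The 4 Negative fragments of replicate 2 were linked by shared ends and counted as 1 group. Tiam2, which encodes an activator of the GTPase RAC, had 15 positive and 11 negative fragments, with an odds ratio of 0.300 (adjusted p = 0.360). Phykpl, which encodes an enzyme of hydroxylysine breakdown, had 21 and 13 (odds ratio 0.361, adjusted p = 0.426), and Frmd4b, which encodes a scaffold protein with a FERM domain, 16 and 11 (odds ratio 0.324, adjusted p = 0.426). Junb, the gene of an AP-1 subunit, had 12 and 9, all in 1 region, with an odds ratio of 0.296 (adjusted p = 0.546). Negative fragments made up 38.1% to 43.5% of the fragments of these 5 genes in replicate 1. In replicate 2 the Negative fragments of Phykpl (2), Frmd4b (3) and Junb (2) were also linked by shared ends into 1 group each. Tiam2 had 1 Negative fragment there.

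In the other direction, Cistr, Mir21a and Grid1 had no negative fragment at all. Cistr had 24 positive fragments against 19.5 expected (adjusted p = 0.853), but its 11 Low and 9 High fragments of replicate 2 fell into 2 groups each once those with a shared end were joined. Mir21a, the gene of a microRNA, had 3 Low, 10 Medium and 6 High fragments in replicate 1 and 1 Low and 2 Medium fragments in replicate 2, none of which shared an end. Grid1, which encodes a glutamate receptor subunit of the delta type, had 21 positive fragments. Zfpm1, which encodes the GATA cofactor FOG1, had 34 positive and 2 negative fragments, with 3 Low, 14 Medium and 15 High fragments in replicate 1 and 1 Low and 3 High in replicate 2. Its odds ratio was 3.73, with a 95% interval of 0.898 to 15.5 that includes no difference (adjusted p = 1). Cxxc5, which encodes a CXXC-type zinc finger protein, had 83 positive and 9 negative fragments (odds ratio 2.03, 1.02 to 4.05, adjusted p = 0.977). In replicate 2 its 8 positive fragments hardly differed from the 7.9996 expected.

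**Figure D2:**
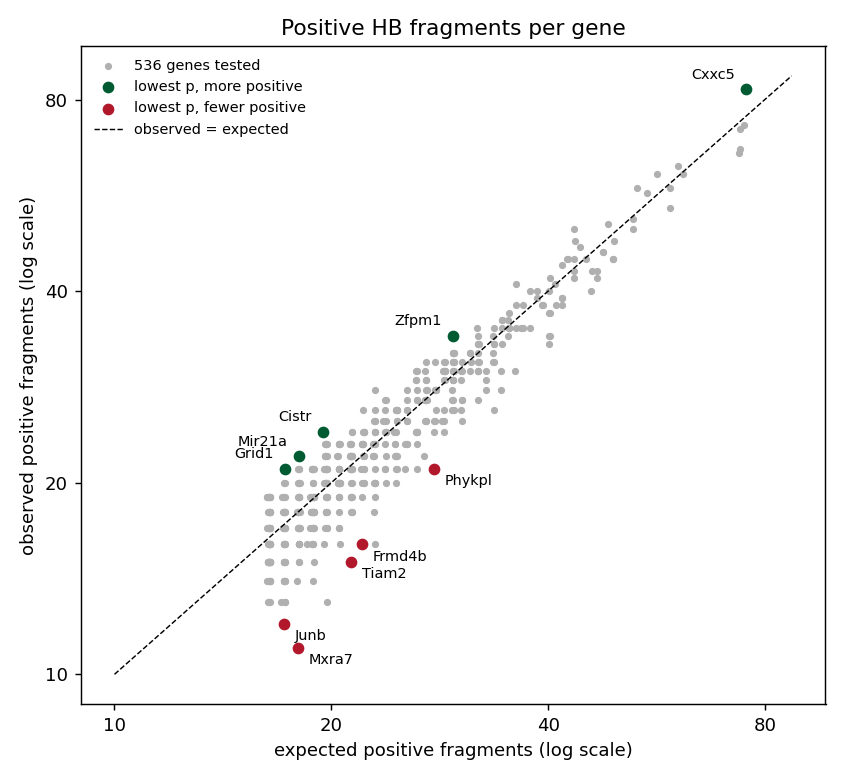
Observed (y axis) against expected (x axis) positive HB fragments of the 536 genes tested, both on a log scale, with the 5 genes of lowest p in each direction among those that moved alike in both sorts in green and red. The genes lie along the dashed line of equality, with Mxra7 at 11 positive fragments against 17.98 expected and Zfpm1 at 34 against 29.5.

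The genes of 10 lists were then examined, from the mesodermal and hemangioblast regulators to signalling pathways, with pluripotency and neuronal genes for contrast. Of the 20 hemangioblast and blood factors, 16 had a positive fragment, 9 of them in both sorts, and 14 had a negative fragment. In the lists taken for contrast 17 of 20 pluripotency genes and 17 of 23 neuronal synapse genes had a positive fragment. In replicate 1 fragments near the hemangioblast and blood factors made up 0.375%, 0.415% and 0.330% of the Low, Medium and High fragments. Their share of the Negative fragments was 0.285%. In replicate 2 the shares were 0.213%, 0.224% and 0.236%, with 0.229% among the Negative fragments. The positive gates were higher in replicate 1, and in replicate 2 the Negative gate lay within their range. The mean difference of 0.0419 percentage points was not past the threshold (two-sided exact permutation test over 16 arrangements, p = 0.312, smallest possible p 0.0625). After Zfpm1, the members with the most positive fragments were Runx1 and Gata2. Runx1 had 32 positive and 9 negative fragments (ratio to expected 0.953), and Gata2 had 24 and 3 (ratio 1.09). Klf1, an erythroid factor, had a negative fragment alone, and Gata1, Hhex and Lmo2 had none of either kind.

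Among the VEGF and endothelial genes, positive fragments were most frequent near Nrp2 and Nrp1, the neuropilin co-receptors of VEGF, and near Kdr. Nrp2 had 37 positive and 12 negative fragments (ratio 0.920), Kdr had 23 and 4 (ratio 1.04), and Nrp1 had 16 and 2, all in 1 region and in replicate 1. The share of the whole list was higher in the Negative gate of both sorts, at 0.463% against 0.355% to 0.415% in replicate 1 and 0.360% against 0.168% to 0.304% in replicate 2. With a mean difference of -0.110 percentage points the exact permutation p was 0.0625, the smallest that this design allows, and 0.417 after adjustment over the 10 lists. The Negative gate did not overlap the others in either sort, but the comparison could not reach the threshold. Among the 10 lists the Negative gate was also above the others in both sorts for the Hippo and AP-1 genes. Their share was 0.534% against 0.388% to 0.465% in replicate 1 and 0.360% against 0.155% to 0.336% in replicate 2. Cardiac and smooth muscle genes had a mean difference of -0.0874 percentage points (exact permutation p = 0.125). They were led by Hand1, a bHLH factor gene, with 27 positive and 10 negative fragments, by Smarcd3, which encodes a chromatin remodelling subunit, with 18 and 8, and by Gata4 and Tbx2, which encode a GATA and a T-box factor, with 16 positive fragments each. Gata4 had 0 negative fragments and Tbx2 had 12, with a ratio of 0.695 (adjusted p = 0.226). The 12 of Tbx2 were all of replicate 1, where they enter the difference of the whole list. They fell into 6 groups once those with a shared end were joined. The Gata4 fragments came from all 6 positive libraries, though some of the 4 different ones of replicate 2 were listed in more than 1 gate. The Hippo and AP-1 genes had a difference of -0.116 percentage points (exact permutation p = 0.125). Here Fos, the gene of an AP-1 subunit, had 73 positive and 18 negative fragments (ratio 0.977), Vgll4, the gene of a TEAD cofactor, 23 and 7, and Ccn1, a target gene of YAP, 17 and 5, and all 6 members tested had a ratio below 1, as did 294 of all 536 genes.

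In the FGF and ERK list, Spred2, which encodes an inhibitor of RAS signalling, had 26 positive and 11 negative fragments, Dusp4, which encodes a phosphatase that acts on ERK, 21 and 5, and the receptor gene Fgfr1 21 and 4. The share of the whole list was 0.332%, 0.362%, 0.359% and 0.410% from Negative to High in replicate 1 and 0.131%, 0.0970%, 0.224% and 0.253% in replicate 2. The High gate was highest in both sorts. The trend of 0.0362 percentage points per gate had an exact permutation p of 0.0278, which was 0.278 after adjustment. The BMP and TGF-beta genes were led by the SMAD family genes Smad6 (34 positive, 7 negative) and Smad3 (17 and 3). Id2 (15 and 2), which encodes an inhibitor of bHLH factors, came next. The Wnt genes were led by Sp8 (22 and 5), the ligand gene Wnt11 (18 and 5) and Tcf7l1 (17 and 0). Tcf7l1 encodes a factor that binds DNA at Wnt targets. Of the early mesoderm genes Hoxb1 (17 and 8), Snai1 (15 and 3) and Eomes (10 and 2) had the most. Among the pluripotency genes Klf4 had 30 positive and 14 negative fragments (ratio 0.832), Esrrb 21 and 2 (ratio 1.12) and Nr5a2 13 and 0. Among the neuronal synapse genes Dlg4 had 18 and 10 (ratio 0.785), Cacna1a 16 and 3 and Gria2 10 and 0. Over the 10 lists 28 members had enough fragments for the test of single genes, 0 of which passed after adjustment, with 4 at an unadjusted p under 0.05 (Junb, Tbx2, Dlg4 and Klf4), all with fewer positive fragments, beside 26 of all 536 genes, 23 of them with fewer. The medians of the ratio ran from 0.785 to 1.09 by list, beside 0.986 over all 536 genes.

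Position in the genome was compared next. In replicate 1 the median distance to the nearest start site was 15220 bp for positive and 15185 bp for negative fragments, and in replicate 2 it was 23591 and 23223 bp. Introns held 41.5% of positive and 41.3% of negative fragments in replicate 1 and 45.5% and 46.9% in replicate 2. Exons held 8.56% and 8.50% in replicate 1 and 6.45% and 6.72% in replicate 2. Fragments over 100 kb from a start site were 7.03% of the positive and 7.39% of the negative fragments in replicate 1 and 17.0% and 16.2% in replicate 2, and those upstream of the nearest start site 44.4% and 44.0%, and 41.4% and 41.3%. Few lay within 1500 bp of a start site, 0.523% to 2.65% by library, so that these are lists of distal fragments. For fragments inside a gene, the nearest start site was that of the same gene for 67.6% to 69.1%. Mean GC content differed more between the replicates than between the gates of either. It was 56.6% to 57.0% in replicate 1 and 50.0% to 50.7% in replicate 2. None of the 9 measures of length, GC content and position passed the threshold, for positive against Negative (lowest exact permutation p 0.188 over 16 arrangements) or for a trend over the gates (lowest exact permutation p 0.0764 over all arrangements of the gates). That lowest value belonged to length. The median length was 185, 184, 176 and 169 bp from Negative to High in replicate 1 and 202, 222, 204 and 183 bp in replicate 2, with the High gate lowest in both sorts.

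Of the 12 motifs, GATA was the one whose share of fragments with a match passed the test of a trend over gates, on 1 of the measures used. From Negative to High it was 4.89%, 4.78%, 4.19% and 3.65% in replicate 1 and 3.96%, 3.92%, 3.39% and 3.09% in replicate 2. It was lower at each step from Negative to High in both sorts. The mean slope was -0.374 percentage points per gate, with an exact permutation p of 0.00347, the smallest that the arrangements of the gates allow, and 0.0417 after adjustment over the 12 motifs. The share with a match was an alternative measure. On the same measure the slope was -0.539 percentage points per gate for RUNX and -0.220 for AP-1, with exact permutation p of 0.0208 and 0.0278, both 0.111 after adjustment, so the order by gate was not shown to be particular to GATA. The GATA call was lost, with adjusted p of 0.0833, when the Medium library of replicate 1 was left out. The slope was then -0.376 and the exact permutation p 0.00694, which is the lowest that the remaining libraries can give. A motif that reached this value alone, as GATA did, could not pass after adjustment over the 12 motifs. It was also lost, with adjusted p of 0.212, when gates were exchanged over all 8 libraries without regard to the sort. As matches per kb, the measure chosen for the comparison, the GATA values were 0.265, 0.267, 0.239 and 0.210 in replicate 1 and 0.192, 0.168, 0.159 and 0.159 in replicate 2, with an exact permutation p of 0.0139 that became 0.167 after adjustment, so 0 of the 12 motifs passed on that measure. Fragment length moves with the gates too, as given above. Among fragments of 150 to 250 bp, a comparison added after these values were seen, the GATA share was 5.42%, 4.71%, 4.23% and 3.88% in replicate 1 and 4.01%, 4.20%, 3.46% and 3.14% in replicate 2, and the exact permutation p was 0.00694 (0.0833 after adjustment).

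For the other motifs, unadjusted p-values of the trend per kb were lowest for T-box (0.00340 matches per kb per gate, exact permutation p = 0.0382, adjusted 0.229). The High gate was highest in both sorts, at 0.0544 and 0.0626 matches per kb against 0.0505 and 0.0437 in the Negative gate. The OCT motif followed (exact permutation p = 0.0694), then CTCF (p = 0.0903) and RUNX (p = 0.108), all by the same exact permutation test and none past the threshold. RUNX matches numbered 0.432 per kb in the Negative and 0.368 in the High gate of replicate 1, and 0.453 and 0.417 in replicate 2. For positive against Negative the ETS, OCT and RUNX motifs had the lowest exact permutation p, 0.125 each. Relative to its level, CTCF was the motif that differed most between the replicates. It had 0.305 to 0.345 matches per kb in replicate 1 and 0.0594 to 0.0947 in replicate 2, in all gates alike.

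**Figure D3:**
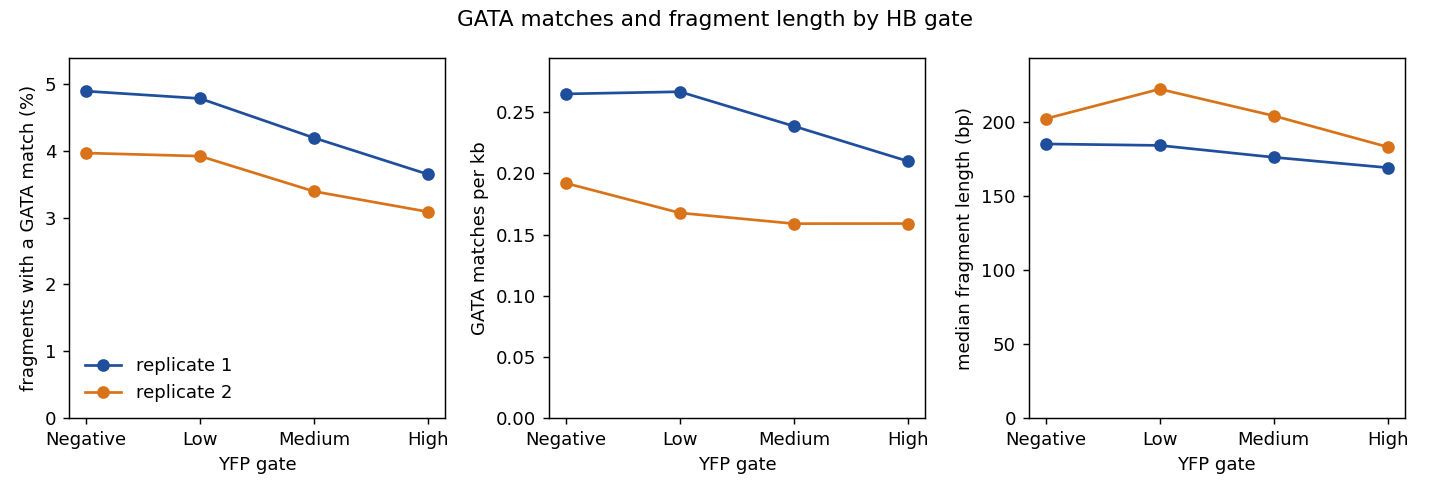
Percent of fragments with a GATA match (left), GATA matches per kb (middle) and median fragment length in bp (right) against the YFP gate, with 1 point for each HB library and a line for each replicate, all y axes starting at 0. The percent with a match runs from 4.89 to 3.65 in replicate 1 and from 3.96 to 3.09 in replicate 2, while length is lowest in the High gate of both.

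Identical fragments were shared between gates. In replicate 1, 699 fragments were both positive and negative, 8.30% of the negative fragments (95% Wilson interval 7.73 to 8.90%). In replicate 2 there were 1170, which was 38.3% of the negative ones (36.6 to 40.02%) and 9.58% of the positive ones. Pairs of gates shared 2.58% to 4.49% of the smaller library in replicate 1 and 16.7% to 33.0% in replicate 2, where Low and Medium shared the most. Of the positive fragments 97.5% were in a single positive gate in replicate 1 and 84.6% in replicate 2. Between the replicates 165 fragments were identical, of 46680 and 14095, or 1.17% of the smaller number (1.01 to 1.36%).

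**Figure D4:**
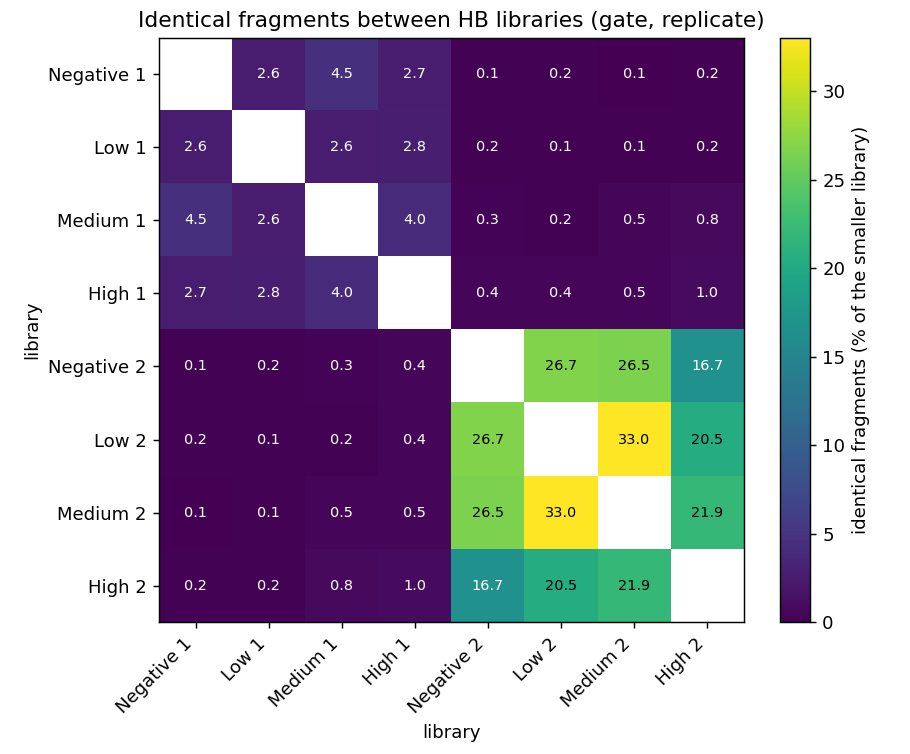
Identical fragments between each pair of the 8 HB libraries (gate and replicate on both axes), as the percent of the smaller library, printed in each cell. The lower right block, replicate 2, holds 16.7 to 33.0%, the upper left block, replicate 1, 2.6 to 4.5%, and the blocks between replicates hold the lowest values.

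Identical fragments were also found in other stages of the same replicate. In replicate 1 they were 19.8% of the Negative, 19.1% of the Low, 31.97% of the Medium and 22.9% of the High fragments. The Medium library stood apart, since 2456 of its fragments (15.2% of them) were also in the High library of HP, whereas the other HB libraries of this replicate had 78 to 543 fragments in common with it. In replicate 2 the shares were 57.5%, 58.0% and 60.2% in Negative, Low and Medium and 30.9% in High. With the Medium library of replicate 1 left out, also chosen after seeing the data, the tests called 0 of 259 genes and 2 of 452 regions.

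Overlapping fragments were joined into regions, of which the 8 libraries gave 25714 with a median width of 218 bp, and 63.4% of which held a single fragment. Of 23395 regions with a positive fragment, 5339 (22.8%) also had a negative one, and 69.7% of the 7658 regions with a negative fragment had a positive one. The share of regions with a negative fragment was higher where more positive fragments had been found. It was 11.4% for regions with 1 positive fragment, 33.2% for 2 to 4, 61.8% for 5 to 9, 86.5% for 10 to 19 and 100% for the 94 regions with 20 or more. A region with more fragments has more chances to hold a negative one, and no expected share was computed. Positive fragments in both sorts were found in 1154 regions, 4.93% of the positive regions. For 495 of these no negative fragment was listed, and 5 regions had negative fragments in both sorts and no positive one, but the sets differ in depth and these numbers are not compared. Of the positive fragments of replicate 1, 14.8% overlapped any HB fragment of replicate 2, as did 14.7% of the negative ones. In the other direction the shares were 11.4% and 12.3%.

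Whether a region came from the same gate in both sorts was tested on the number of regions shared by each pair of gates over the number expected from the sizes of the libraries. The mean log2 ratio of observed to expected was -1.68 for the same gate and -1.74 for different gates. Expected numbers were taken over all regions with an HB fragment. Leaving out regions without any HB fragment lowers every one of these ratios. Their negative sign is therefore not a finding on recurrence, and the test concerns the difference between same and different gates alone. The difference of 0.0581 was not past the threshold (one-sided exact permutation test over 24 arrangements of the gate labels, p = 0.0833, smallest possible p 0.0417). Negative with Negative gave -1.42, the highest value among the pairs, and Low with Negative -1.43.

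Of the 495 regions positive in both sorts without a negative fragment, those near Crh, which encodes the corticotropin-releasing hormone, Adamts14, which encodes a matrix protease, and Cbx7, which encodes a Polycomb protein, had the most positive fragments, 13 each, of which 12 came from replicate 1. The Cbx7 region (chr15:79950580-79950888, -18104 bp from the start site, on the upstream side) had fragments in all 6 positive libraries, with 2 Low, 2 Medium and 8 High in replicate 1 and 1 fragment in replicate 2 that was listed in all 3 gates. Some lay near genes of the lists. The region near Smad6 (chr9:63941586-63942275) had 10 positive fragments in replicate 1 and 2 in replicate 2, and the one near Tcf7l1 (chr6:72824889-72825645) 9 and 1. Near Gata4, which encodes a GATA factor of mesoderm and heart, there were 3 such regions, among them chr14:63240161-63240681 with 2 positive fragments in each sort. Near Eomes there was 1 (chr9:118486536-118486971), with 1 and 2, and near Mesp1 1 (chr7:79797272-79797723), at -3791 bp from the start site, with 1 in each sort. The absence of a negative fragment from regions of this size is a matter of few counts, since 3 fragments are the upper limit that a count of 0 allows.

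The regions found in all 6 positive libraries numbered 49, and 41 of these (83.7%) also had a negative fragment. Presence in all 6 does not need several fragments in replicate 2. At Larp1, Myzap, Pik3ca and Pigl it rested there on 1 fragment listed in all 3 positive gates. Their fragments had a mean GC content of 61.9% and lay at a median of 9001 bp from a start site, against 55.1% and 17004 bp for all HB fragments. AP-1 matches numbered 0.693 per kb against 0.337 for all regions, ETS matches 0.570 against 0.233 and GATA matches 0.0616 against 0.217. A match was counted in every listed fragment that held it, and the 49 regions held 956 listed fragments. A few regions with many fragments can thus set these rates. These values describe a set chosen by its recurrence and were not tested. The region with the most positive fragments (chr11:6388759-6389475, -6008 bp from the nearest start, that of Zmiz2, which encodes a cofactor of transcription) held 8 Low, 17 Medium and 17 High fragments and 11 Negative ones in replicate 1, and 1 Low, 1 Medium, 2 High and 2 Negative ones in replicate 2. Its 44 positive fragments stood against 46.8 expected (adjusted p = 1). It held positive fragments at every stage, 36 at ES, 67 at HE1, 58 at HE2 and 18 at HP. Next came a region 64629 bp downstream of a start site of Zfp958 (chr8:4677458-4678481), with 39 positive and 15 negative fragments, and an intron of Myo1c (chr11:75653714-75654581), the gene of a myosin, with 27 and 6. The others were near Larp1 (26 and 6), Cntnap1 (25 and 9), Myzap (23 and 5), Myo18a (22 and 4), Pik3ca (20 and 3), 1700066B19Rik (20 and 2) and Pigl (20 and 11). Their ratios of observed to expected ran from 0.786 at Pigl to 1.11 at 1700066B19Rik, and none passed the test. The Pik3ca region (chr3:32396790-32397256), at the gene of a subunit of the PI3 kinase, was the one centred at a promoter, 42 bp upstream of the start site. The windows of the 3 regions with the most positive fragments are given, with capitals as above.
Zmiz2, chr11:6389084-6389243: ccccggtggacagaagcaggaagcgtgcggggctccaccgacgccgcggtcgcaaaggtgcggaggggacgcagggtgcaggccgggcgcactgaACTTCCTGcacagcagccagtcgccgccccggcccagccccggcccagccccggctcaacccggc
Zfp958, chr8:4677686-4677845: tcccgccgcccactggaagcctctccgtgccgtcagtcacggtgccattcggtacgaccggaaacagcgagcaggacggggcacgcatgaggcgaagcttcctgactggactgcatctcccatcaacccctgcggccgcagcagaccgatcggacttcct
Myo1c, chr11:75654063-75654222: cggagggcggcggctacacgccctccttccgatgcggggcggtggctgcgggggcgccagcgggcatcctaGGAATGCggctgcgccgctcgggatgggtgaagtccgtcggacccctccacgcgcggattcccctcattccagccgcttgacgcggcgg

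An ETS match was found in the Zmiz2 window and a TEAD match in the Myo1c window, and none of the searched motifs in the Zfp958 window. Of the 9 windows examined at these regions, 4 held a match to any of the motifs, among them an AP-1 match at Pik3ca and TAL E-boxes at Cntnap1, beside 49.3% of the windows of all HB regions. Of all windows of this length 3.10% held an ETS match, 5.48% a TEAD match and 5.33% an AP-1 match.

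In the test of regions, 2 of 926 regions with at least 10 fragments passed, both with fewer positive fragments than expected, which is 0.216% of the regions tested, and 0% passed for more positive fragments, for which the ceiling on the ratio given above leaves little room. Without adjustment 41 regions had a p under 0.05, all with fewer positive fragments. Each of the 2 lay in 1 sort alone. The region 16701 bp downstream of the start of Tbx2 (chr11:85849129-85849503), a T-box factor gene, had 10 Negative fragments in replicate 1 and no other fragment, against 8.22 positive fragments expected (adjusted p = 1.57e-07). The region at -105455 bp from the start of Syt13 (chr2:92809520-92809773), a synaptotagmin gene, had 11 Negative and 6 Medium fragments in replicate 2 (odds ratio 0.136, 0.0503 to 0.368, adjusted p = 0.00778), and all 6 were identical to Negative ones. The region with the next lowest p, near Ndfip1, which encodes an adaptor of ubiquitin ligases, had 7 Negative, 3 Medium and 1 High fragment in replicate 1 and none in replicate 2 (adjusted p = 0.105). For more positive fragments regions near Zfp608 and Lrba were among those with the lowest p, with adjusted p of 1. The region near Zfp608, which encodes a zinc finger protein, held 9 Low, 15 Medium and 3 High fragments and 1 Negative fragment in replicate 1 and 1 Low fragment in replicate 2.

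Many fragments of the regions at Syt13, Tbx2 and Lrba ended in or close to short tandem repeats. All 17 Syt13 entries began at the same base, and their 11 different ends were 2 bp apart in all 10 steps, from 92809753 to 92809773 on chromosome 2. The Lrba region (chr3:86310378-86310735, in an intron) had 14 Low and 10 High fragments of replicate 2 with 2 different starts and 14 different ends. The 10 Tbx2 fragments had 5 different starts and 9 different ends. Of the different ends, 9 of 11 at Syt13, 2 of 14 at Lrba and 4 of 9 at Tbx2 lay inside the repeat that is marked. The sequences at the far ends of the regions are shown, picked after the values were seen. They hold all the different ends at Syt13 and Lrba and 7 of 9 at Tbx2, where the other 2 lie before the sequence. Capitals mark the repeat at or nearest to the lowest end of the fragments that share the most common start.
Syt13, chr2:92809674-92809793: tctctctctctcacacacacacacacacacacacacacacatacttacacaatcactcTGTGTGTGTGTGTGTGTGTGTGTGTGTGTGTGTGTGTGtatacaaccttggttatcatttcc
Tbx2, chr11:85849404-85849523: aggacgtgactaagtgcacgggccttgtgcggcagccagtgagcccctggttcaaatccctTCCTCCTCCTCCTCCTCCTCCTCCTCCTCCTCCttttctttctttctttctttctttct
Lrba, chr3:86310636-86310755: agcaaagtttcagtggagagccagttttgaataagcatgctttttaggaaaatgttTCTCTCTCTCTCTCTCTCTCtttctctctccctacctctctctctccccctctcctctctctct

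The capitals are a repeat of 38 bases with a unit of 2 at Syt13, 33 bases with a unit of 3 at Tbx2 and 20 bases with a unit of 2 at Lrba. With fragments that shared a start or an end within a library counted once, a setting chosen after seeing the data, 0 of 800 regions passed, and 0 of 856 passed when fragments with both ends within 5 bp were joined. The Tbx2 region then had 4 and 6 fragments and the Syt13 region 2 and 6, so that both were below the minimum of 10 and were not tested. Over whole libraries the share of fragments that had a start or an end in common with another fragment of the same library was 11.9% in Negative against 9.76% to 10.2% in the positive gates of replicate 1. In replicate 2 it was 23.2% in Negative and 17.7%, 6.67% and 11.5% in Low, Medium and High. The Negative gate was highest in both sorts.

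**Figure D5:**
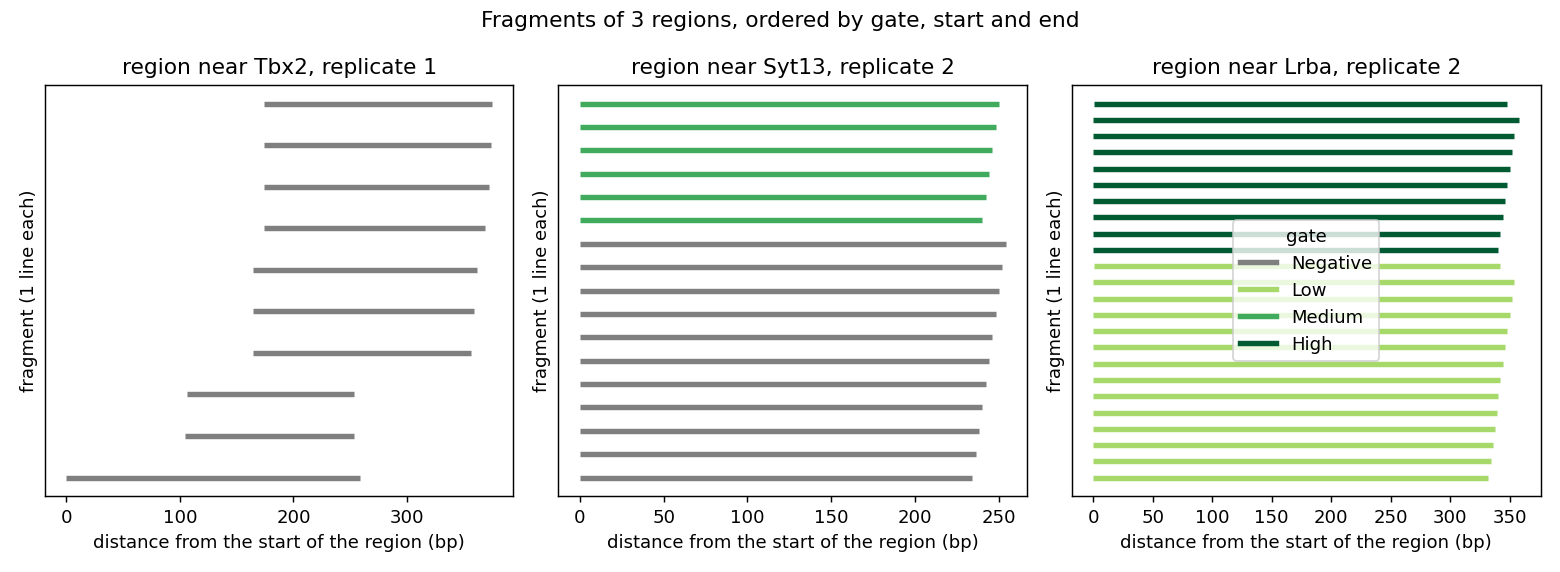
Fragments of the regions near Tbx2 (replicate 1), Syt13 and Lrba (both replicate 2), 1 line each, coloured by YFP gate, against the distance in bp from the start of the region. The 17 Syt13 fragments share 1 start and end 2 bp apart, while the 10 Tbx2 fragments, all Negative, have 5 starts.

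HB was finally set against the other stages on 23 measures of positive fragments, in the same replicate. None passed the threshold, with a lowest exact permutation p of 0.12 (25 arrangements of which stage is HB, smallest possible p 0.04) and an adjusted p of 0.92 for all 23. That lowest value was for the T-box motif, with 0.0520 matches per kb at HB in replicate 1 against a mean of 0.0370 at the other stages, and 0.0515 against 0.0517 in replicate 2. HB was highest in replicate 1, but it lay within the range of the other stages in replicate 2. Fragments near FGF and ERK genes were 0.383% at HB against 0.346% in replicate 1 and 0.188% against 0.166% in replicate 2 (exact permutation p = 0.16). LEF/TCF matches were 0.130 per kb at HB against 0.106 in replicate 1 and 0.145 against 0.136 in replicate 2 (exact permutation p = 0.2). For the hemangioblast and blood factors HB had 0.370% against 0.302% in replicate 1 and 0.205% against 0.290% in replicate 2 (exact permutation p = 0.88). AP-1 matches, at 0.357 per kb, were lowest at HB among the 5 stages of replicate 1, where the others had a mean of 0.555, whereas in replicate 2 HB had 0.280 against 0.273 (exact permutation p = 0.28).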

How the data were processed

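The 8 HB libraries (4 YFP gates, 2 replicates) were grouped from their titles. According to the methods and the labels, inserts were amplified by PCR from the DNA of sorted cells and both ends were sequenced. Trimming (Trim Galore) and alignment to mm10 (Bowtie2) were done by the authors, who kept proper pairs and reduced duplicates to 1. The submitters' processing notes also name SAMtools, bedtools and HOMER. The tool versions used for these libraries are not given in the sources used here. The deposited values are coordinates in bp of unique fragments, with no read count or molecular identifier, so intervals (95%, Wilson for shares) cover counting error only. A background filter and a restriction to open chromatin are described, but whether they had been applied to these lists is not stated. Listed fragments are thus not known to be independent molecules. Nothing used here states how far the replicates came from separate cultures. The exact permutation and limma p-values measure the spread between these libraries. Those of the gene and region tests measure counting error of fragments only.

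Fragments were placed by their centre on curated RefSeq transcripts of GRCm38 (9 unplaced fragments were left out of annotation and sequence measures). The gene and region tests were Cochran-Mantel-Haenszel tests with continuity correction, stratified by sort, with minima of 20 fragments a gene and 10 a region. Library measures were tested by exact permutation within sorts, for Negative against the other gates and for a trend over gates, each adjusted by the Benjamini-Hochberg method within its family. The replicate number pairs the gates, since the 4 gates of a replicate come from 1 sort, and libraries of a replicate lay together in GC content. Of 207 listed genes all matched a RefSeq symbol. Named were the 5 genes with the lowest p in each direction among those alike in both sorts, the 3 members of each list with most positive fragments, 14 loci, the 10 most positive regions among those in all 6 positive libraries and the 3 regions with the lowest p in each direction, of which 1 is not reported here. Measures were given a direction where the exact p was at most 0.125 (0.2 for stages). The hemangioblast and blood factors and, among stages, AP-1 were given outside this rule. The members, lists, loci and motifs were chosen with earlier results of these data known. Both tests were tested on simulated data. Python 3.11.15, scipy 1.17.1, pysam 0.24.0 and limma 3.58.1 were used.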

Additional observations from a re-analysis of the deposited data

How the results depend on the processing

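The gene test called 0 genes with minima of 20 and 50 fragments, with start sites within 50 kb, with the gene body, with near-identical or end-sharing fragments counted once, with each positive gate alone, without the Medium library of replicate 1, and with limma. It called 1 gene with a minimum of 10 fragments (Syt13) and 1 without fragments that were both positive and negative (Mxra7, adjusted p = 0.0317, ratio 0.597). Left without replicate 2 it called 0, and without replicate 1 no gene had 20 fragments. With no replicate block, both sorts being pooled, 0 genes and 2 regions were called, as with the block. Without the block the gate measures of structure, motifs per kb and lists gave 0 calls, as with it, whereas the GATA call as a percent was lost. Stages and the same-gate comparison were not run without it. The region test, with 2 calls, gave 0 with a minimum of 20 fragments, 0 with near-identical fragments collapsed and 0 with end-sharing fragments counted once (both regions were then too small to be tested), 1 without fragments both positive and negative, and 1 (without replicate 2, Tbx2) to 3 (without replicate 1, Syt13, Gsg1l and Gm44) when a replicate was left out. Fewer regions reached the minimum in several of these (154 of 926 with 20 fragments, 9 without replicate 1). The motif trend gave 1 call (GATA) as the percent of fragments with a match, and 0 in the other settings, those of the percent without the Medium library of replicate 1 and without the block included (both added after seeing the data). In fragments of 150 to 250 bp, added after seeing the data, OCT turned to -0.371 percentage points for positive minus Negative and -0.150 per gate for the trend. The share near hemangioblast and blood factors turned to -0.0180 percentage points when regions were counted, and ranged from -0.00478 without replicate 1 to 0.0886 without replicate 2. The T-box difference between HB and other stages ranged from -0.000181 without replicate 1 to 0.0150 without replicate 2. The cause was not tested for any of these. Replicate 2, with 3056 to 5931 fragments in a library, supports fewer statements on single loci than replicate 1.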
